A study of Mus musculus with 6 samples.

Results

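The genes described here are 4 genes of intermediate filaments, Vim, Des, Nes and Synm, and 6 genes of caveolae, Cav1, Cav2, Ptrf, Sdpr, Prkcdbp and Ehd2. They were chosen by name as filament and caveola genes typical of mesenchymal cells, and all 10 were found among the 22800 gene symbols of the tables. RNA sequencing measured them in murine oviductal epithelial (MOE) cells, a line of outbred CD1 mice that was started from the pooled oviducts of females of 8 weeks and kept in serial passage on plastic. The early group, MOELOW, held the libraries of passages 8, 9 and 10. The late group, MOEHIGH, held those of passages 90, 103 and 113. No transgene or drug treatment is named for either group, and RNA was taken at 75% confluency. All 6 libraries came from 1 line, so n counts passages and each p-value measures only the spread between passages. The comparison asks how levels of these genes differed between early passages and the late passages that were obtained from them by culture alone.

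Intermediate filaments are rope-like polymers that resist stretch. Vimentin and desmin polymerize by themselves, whereas nestin and synemin are large proteins that are built into filaments of a partner, and epithelial cells rely mainly on keratins. Caveolae are flask-shaped pits of the plasma membrane that are abundant in fibroblasts, smooth muscle, endothelium and adipocytes, where they buffer membrane tension. Caveolins form the core of the coat, cavins form an outer layer, and the ATPase EHD2 sits at the neck of the pit.

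Values are FPKM (fragments mapped, scaled by transcript length and by the mapped total of the library), which correct for transcript length, and the depth behind them is unknown. In 6 of 6 tables the column heading did not match the passage on the sample label, and the label was used. Summed FPKM ranged from 597161 to 770438 over the 6 libraries. The labelled cell type is epithelial. Pax8, a transcription factor of oviductal secretory cells, was at 49.2 ± 5.04 FPKM (SD, n = 3) in MOELOW and did not differ beyond its spread (log2 fold change -0.12, adjusted p = 0.39), and Krt18 and Krt19 were high. The 10 tested markers of secretory epithelium moved both ways, with 3 higher, 3 lower and 4 not passed. Msln, encoding mesothelin, rose by 3.0 on the log2 scale, whereas Elf3 (-1.76), Emx2 (-1.51) and Wt1 (-0.74), encoding transcription factors, were lower, and Ovgp1, encoding oviductal glycoprotein, was at 0.875 ± 0.187 and 0.887 ± 0.162 FPKM. The epithelial adhesion genes Epcam and Cdh1 were near 0 in both groups, at no more than 0.0399 and 0.0821 FPKM in any library. Markers of some other cell types moved with the groups, but not all did. Sums of ciliated markers overlapped (5.04 to 7.51 FPKM in MOELOW and 5.64 to 6.27 FPKM in MOEHIGH). Of the 4 tested ones 1 was higher, 1 was lower and 2 did not pass. Sums of leukocyte markers overlapped too. All 6 tested markers of smooth muscle and pericytes passed the test as lower in MOEHIGH, with a sum over the 11 listed genes of 7901.1 to 11130.2 FPKM in MOELOW and 71.2 to 109.0 FPKM in MOEHIGH. Of 7 tested fibroblast markers 6 were lower and 0 higher, with sums of 596.3 to 988.0 and 22.4 to 32.7 FPKM. Beside these counts, 32.1% of all tested genes were lower and 24.3% higher.

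The bases just before the transcription start are shown for 6 members, so that the filament genes Des and Nes can be set beside Vim, the caveolin genes beside each other, and Sdpr, the caveola gene with the largest fall, beside them. RefSeq (GRCm38.p6, the assembly of the authors' mm10) gave windows of 250 bases before a start for 9 of the 10 genes, and not for Prkcdbp. Capitals mark matches, on either strand, to the TATA box (spelled TATAAA), the CCAAT box (by those letters), the GC box (spelled GGGCGG) and the AP-1 site (spelled TGANTCA). The matches in these windows do not overlap each other.
Vim, chr2:13574061-13574310, plus strand: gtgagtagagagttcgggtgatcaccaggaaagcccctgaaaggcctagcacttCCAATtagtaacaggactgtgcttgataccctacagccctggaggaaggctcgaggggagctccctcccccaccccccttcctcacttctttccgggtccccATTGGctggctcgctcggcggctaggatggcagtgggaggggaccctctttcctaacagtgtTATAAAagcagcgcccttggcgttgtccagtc
Des, chr1:75360042-75360291, plus strand: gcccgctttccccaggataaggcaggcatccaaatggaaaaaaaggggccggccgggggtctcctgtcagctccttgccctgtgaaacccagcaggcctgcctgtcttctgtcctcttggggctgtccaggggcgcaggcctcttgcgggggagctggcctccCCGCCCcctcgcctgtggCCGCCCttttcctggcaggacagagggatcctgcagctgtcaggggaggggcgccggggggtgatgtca
Nes, chr3:87970843-87971092, plus strand: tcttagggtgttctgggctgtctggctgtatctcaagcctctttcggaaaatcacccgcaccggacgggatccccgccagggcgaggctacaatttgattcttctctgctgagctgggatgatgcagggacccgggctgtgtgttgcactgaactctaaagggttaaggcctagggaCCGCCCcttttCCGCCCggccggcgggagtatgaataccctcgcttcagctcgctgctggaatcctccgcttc
Cav1, chr6:17306085-17306334, plus strand: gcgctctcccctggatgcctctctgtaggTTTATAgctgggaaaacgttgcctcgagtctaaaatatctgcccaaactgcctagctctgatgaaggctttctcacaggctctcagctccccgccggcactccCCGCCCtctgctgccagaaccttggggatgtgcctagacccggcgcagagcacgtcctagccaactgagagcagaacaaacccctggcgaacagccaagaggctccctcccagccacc
Cav2, chr6:17280935-17281184, plus strand: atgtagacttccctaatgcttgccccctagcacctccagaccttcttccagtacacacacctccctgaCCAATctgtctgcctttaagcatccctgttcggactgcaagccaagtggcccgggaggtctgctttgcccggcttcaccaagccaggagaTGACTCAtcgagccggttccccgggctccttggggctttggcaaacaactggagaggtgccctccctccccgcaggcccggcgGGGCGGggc
Sdpr, chr1:51288876-51289125, plus strand: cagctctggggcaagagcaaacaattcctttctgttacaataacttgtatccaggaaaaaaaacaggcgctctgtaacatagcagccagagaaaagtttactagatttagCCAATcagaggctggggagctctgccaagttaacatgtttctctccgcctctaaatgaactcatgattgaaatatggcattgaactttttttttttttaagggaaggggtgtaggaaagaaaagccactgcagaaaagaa
Among the 6 windows shown, a TATA box in the orientation of the gene, 32 to 27 bases before the start, was found in Vim alone, and Cav1 held one on the opposite strand at 221 to 216. A match on either strand was present in 12.4% of the 32851 windows of all genes. Des and Nes each held a pair of GC boxes on the opposite strand. They lay 87 to 82 and 69 to 64 bases before the start in Des, and 73 to 68 and 62 to 57 in Nes. At least 1 GC box on either strand was held by 32.7% of all windows, and pairs were not counted. Cav1 and Cav2 held 1 GC box each. Among genes not shown, Ptrf and Ehd2 also held a GC box, on the opposite strand. The AP-1 match of Cav2 lay 92 to 86 bases before its start, and 6.75% of all windows held such a match. The window of Cav1 that is shown held none. RefSeq gave a second window for Cav1 (chr6:17307390-17307639), not shown, which held no match to any of the motifs searched. CCAAT boxes, present in 33.8% of all windows, were found in Vim, Cav2 and Sdpr among those shown. The window of Sdpr was 40.4% G and C, below the median of all windows (52.4%), and those of the other 5 ranged from 58.4% to 67.2%. GGAATG (TEAD site), searched in the same way and present in 12.6% of all windows, was found in the windows of Ptrf alone among the 9 genes. Matches to the CArG box and the MEF2 site, present in 1.47% and 2.92% of all windows, were found in 0 of the 9. A match is a run of letters and was not tested for binding.

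In MOEHIGH, transcripts of Des and Nes were nearly lost while those of Vim stayed among the highest in the cells, and within the caveola coat Sdpr, Ehd2, Prkcdbp and Cav1 were lower, Cav2 was higher and Ptrf did not pass the test. Differences were tested with limma on log2(FPKM + 1), a scale that understates the change of low genes, in the 11621 genes whose mean reached 0.5 FPKM. Of the 10 genes 9 were tested, since Synm lay below that mean. Of the 9, 7 passed at an adjusted p of 0.05, where 56.4% of all tested genes did. The 6 that fell stand beside 32.1% of all tested genes, and the 1 that rose stands beside 24.3%. Of the calls over all genes, 43.1% were higher, a share of 57.0% after quantile normalization, under which the calls of 8 of these 9 genes were as in the main comparison and that of Cav1 was lost (adjusted p = 0.062). Groups did not overlap for 7 of the 9, where 64.0% of tested genes did not. The median log2 fold change of the 9 was -0.78, and that of all tested genes was -0.05. In a test against a change of 2-fold, Des, Nes and Sdpr passed as lower, where 7.8% of all tested genes did. In these bulk samples fewer cells of a type and less RNA per cell cannot be told apart.

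**Figure D1:**
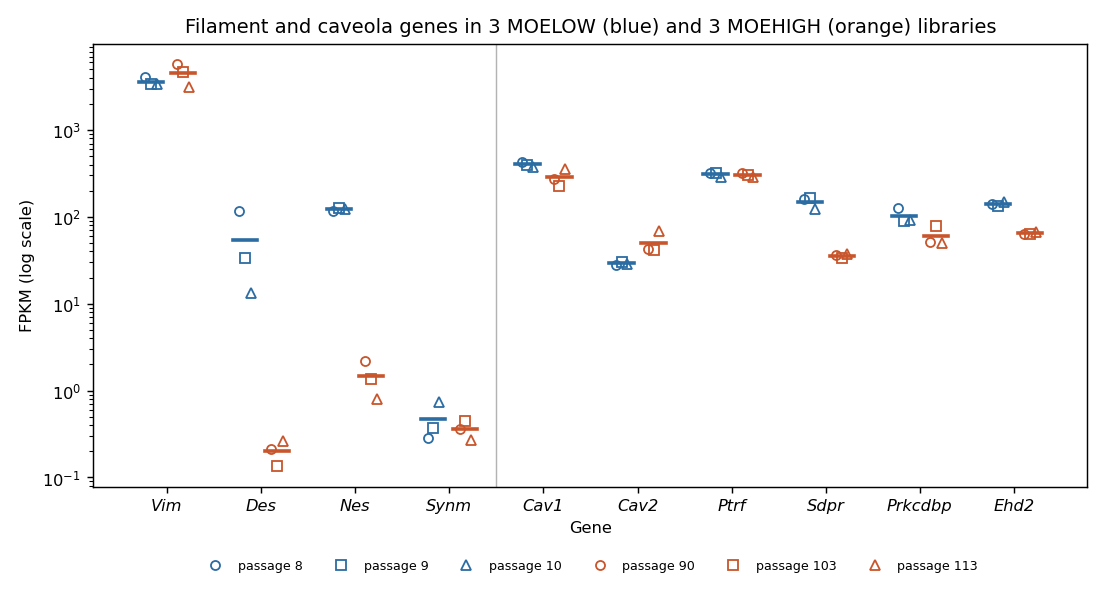
FPKM on a log axis of the 10 genes in each library, with MOELOW in blue, MOEHIGH in orange and a bar at each group's mean of 3 passages. Des and Nes lie far apart between the groups (54.7 against 0.204 and 122.7 against 1.46 FPKM), whereas Vim, Synm and Ptrf overlap.

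Vimentin is the main filament protein of mesenchymal cells, and Vim (chr2:13574311-13582826, plus strand) was at percentile 99.9 of all symbols in every library. It measured 4113.4, 3401.5 and 3353.1 FPKM at passages 8, 9 and 10 and 5748.7, 4720.8 and 3139.2 FPKM at passages 90, 103 and 113. The highest and the lowest of the 6 values were both in MOEHIGH, so the groups overlapped. The means were 3622.7 ± 425.6 and 4536.2 ± 1314.5 FPKM (SD, n = 3), and the log2 fold change of 0.29 (standard error, SE, 0.24) did not pass the test (adjusted p = 0.34, limma). Without the library of passage 113 it was 0.53 and passed (adjusted p = 0.017), and the remaining 18 alternatives gave 0.09 to 0.38 without a call.

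Desmin is the filament protein of muscle cells, and Des lies at chr1:75360292-75368579 on the plus strand. It measured 117.1, 33.9 and 13.2 FPKM at passages 8, 9 and 10 and 0.212, 0.134 and 0.265 FPKM at passages 90, 103 and 113. Every library of MOEHIGH was under 1 FPKM and every library of MOELOW was above 10 FPKM, with passage 8 far above the other two. Its mean fell from 54.7 ± 55.0 to 0.204 ± 0.0662 FPKM, a ratio of means of 268.6, with a log2 fold change of -5.01 (SE 0.64, adjusted p = 0.00036). The call held in all 19 alternatives, with log2 fold changes from -7.5 (pseudocount of 0.01) to -4.21 (without passage 8). The level in MOELOW rests on the library of passage 8, since the mean was 23.6 FPKM without it.

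The spread of Des within MOELOW was among the widest of the 8302 genes compared. Genes listed at 0 in a library of MOELOW have no such ratio. The 8302 did not include all other genes either, since Synm, at 0.282 to 0.749 FPKM and a ratio of 2.66, was not among them. The highest of the 3 values of Des was 8.86 times the lowest, where the median of the 8302 genes was 1.15. Among those genes only Fam65a, Snhg7 and Actg2, named after their values were seen, spread wider. Actg2 encodes a smooth muscle actin and was likewise highest at passage 8 (103.6 FPKM, against 15.8 and 10.6). Of the tested markers within MOELOW, passage 8 was the highest for 4 of 6 of smooth muscle and pericytes and for 6 of 7 of fibroblasts. Passage 10 was the highest for the others (Mcam, Smtn and Postn). The share of all tested genes that were highest at passage 8 was not counted, so the counts are not read as particular to these markers. Summed FPKM was also largest at passage 8 (683841, against 678062 at passage 9 and 624733 at passage 10). Cnn1, encoding calponin, measured 552.2, 317.7 and 304.5 FPKM at passages 8, 9 and 10, and the collagen gene Col1a2 measured 233.3, 97.5 and 92.2 FPKM. Between the groups, the smooth muscle genes Acta2 (4394.7 to 5.74 FPKM) and Tagln (4223.8 to 6.39 FPKM) fell as Des did, with log2 fold changes of -9.37 and -9.22 (adjusted p = 1.2e-07 and 2.9e-07). The part of smooth muscle-like expression in the level of Des was not tested. The skeletal muscle factors Myod1, Myog, Myf5 and Pax7 were listed at 0 in all 6 libraries, and the only tested genes of that list, Mylpf and Tnni2, rose by 1.0 and 2.88 on the log2 scale. Speg, which encodes a kinase of muscle and is the next tested gene after Des on chromosome 1, also fell, from 54.6 ± 3.0 to 1.36 ± 0.287 FPKM (log2 fold change -4.57, adjusted p = 1.6e-07), but at 58.0, 53.9 and 52.1 FPKM it spread little within MOELOW. Of the 10 tested neighbours of Des 5 were lower and 2 higher, where 32.1% and 24.3% of all tested genes were.

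Nestin is a filament protein of progenitor cells, of the nervous system and of young muscle, and Nes lies at chr3:87971093-87980451 on the plus strand. It measured 117.3, 127.3 and 123.5 FPKM at passages 8, 9 and 10 and 2.2, 1.36 and 0.809 FPKM at passages 90, 103 and 113. The 3 early passages were close together and the 3 late ones were all far below them. The mean fell from 122.7 ± 5.05 to 1.46 ± 0.701 FPKM, a ratio of 84.3, with a log2 fold change of -5.69 (SE 0.19, adjusted p = 3.9e-07) that held in all 19 alternatives (-6.5 to -5.42). Of the tested genes 27 had a lower log2 fold change than Nes and 46 a lower one than Des. Neural and glial markers were low in both groups, with sums of 4.06 to 6.41 FPKM in MOELOW and 1.51 to 2.11 FPKM in MOEHIGH, and Sox10 and Rbfox3 were listed at 0 throughout. The only tested gene of that list, the neuronal tubulin gene Tubb3, was lower, as Nes was (5.19 ± 1.29 to 1.38 ± 0.21 FPKM, log2 fold change -1.36, adjusted p = 0.00036), and its part was not tested. The 10 tested neighbours of Nes had a median log2 fold change of 0.17, with 4 higher and 2 lower, where 24.3% and 32.1% of all tested genes were.

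Synemin links desmin and vimentin filaments to other structures of the cell, and Synm lies at chr7:67730161-67759742 on the minus strand. It measured 0.282, 0.37 and 0.749 FPKM in MOELOW and 0.363, 0.452 and 0.268 FPKM in MOEHIGH. All values were under 1 FPKM and the groups overlapped. With no filter on low values its log2 fold change was -0.10 (SE 0.12, adjusted p = 0.55), so no difference was detectable at this level.

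Ratios within a library do not change when each library is multiplied by a factor of its own, although quantile normalization can change them. Of such ratios 9 were compared by exact two-sided permutation tests, in which 3 against 3 libraries cannot give a p below 0.1. Des stood at 2.85%, 0.998% and 0.394% of the FPKM of Vim in MOELOW and at 0.00369%, 0.00284% and 0.00845% in MOEHIGH. Nes stood at 2.85%, 3.74% and 3.68% and then at 0.0383%, 0.0288% and 0.0258%. The groups did not overlap for either ratio, and the log2 ratio differed by -7.86 and -6.80 (exact permutation p = 0.1 for both, 0.129 adjusted over the 9 ratios). The ratio of Synm to Vim overlapped between the groups (exact permutation p = 0.4). Vim thus held 94.6% to 96.06% of the summed FPKM of the 4 filament genes in MOELOW and 99.95% to 99.96% in MOEHIGH. Against the epithelial filaments, the 4 genes summed to 2.4, 1.94 and 2.42 times Krt7, Krt8, Krt18 and Krt19 in MOELOW and to 1.95, 1.47 and 1.53 times in MOEHIGH. These ratios overlapped and did not pass (exact permutation p = 0.2, 0.225 adjusted).

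The other filament genes did not share one direction. Of 12 non-keratin filament genes besides the members 4 were tested, of which 3 were higher and 1 was lower, but with no filter on low values 2 were higher and 5 lower. The 3 higher ones encode the nuclear lamins, which line the inner nuclear membrane: Lmna measured 378.7 ± 22.6 and 614.1 ± 189.9 FPKM (log2 fold change 0.65, adjusted p = 0.036, lost in 8 of 19 alternatives, among them those without passage 8, 9, 10, 90 or 103, at 0.079 to 0.11), Lmnb1 rose by 0.79 and Lmnb2 by 0.88. Sync, encoding syncoilin, a muscle protein that binds desmin, fell from 4.38 ± 0.554 to 0.0919 ± 0.0552 FPKM (log2 fold change -2.30, adjusted p = 2.7e-06). The remaining 8 were below the filter. Among them were Prph, Nefm, Nefh and Ina, filament genes of neurons. All 4 were above 0 in each library of MOELOW and listed at 0 in each of MOEHIGH. Prph measured 0.0601, 0.384 and 0.217 FPKM in MOELOW, where Nefm, Nefh and Ina averaged 0.0669, 0.0705 and 0.0392 FPKM. With no filter these 4 passed as lower (adjusted p = 0.047, 0.019, 0.0052 and 0.026, limma). Their log2 fold changes were only -0.28, -0.093, -0.098 and -0.055. Such values lie near 0 with unknown counts, so a fall of these genes cannot be read from the calls. The glial Gfap and the neuronal Nefl were listed at 0 in all libraries. Of 5 keratins of simple epithelia Krt18 and Krt7 were higher, Krt20 was lower, and Krt8 and Krt19 did not pass. Krt18 rose from 798.1 ± 25.3 to 2028.8 ± 531.1 FPKM (log2 fold change 1.31, adjusted p = 0.0011), while Krt8, whose protein pairs with keratin 18, measured 47.1 ± 7.4 and 40.6 ± 16.5 FPKM (adjusted p = 0.44).

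Of the 9 listed linkers and chaperones of filaments 8 were tested, of which 6 were lower, 1 was higher and 1 did not pass. Their median log2 fold change was -0.72, and 32.1% of all tested genes were lower and 24.3% higher. Hspb1, a small heat shock protein that guards filaments and actin, fell the most of them, from 379.9 ± 25.0 to 10.1 ± 2.26 FPKM (log2 fold change -5.12, adjusted p = 2.3e-07). Flna, which crosslinks actin and binds vimentin, fell from 501.6 ± 33.2 to 164.0 ± 23.8 FPKM (-1.61, adjusted p = 3.1e-05). Cryab, encoding the desmin chaperone alpha B-crystallin, was lower by the test (-0.83, adjusted p = 0.02), but its groups overlapped, with 115.9 FPKM at passage 10 and 118.0 FPKM at passage 90, and the call was lost without passage 8, 9, 103 or 113 (adjusted p = 0.051 to 0.076). Mtm1, whose phosphatase binds desmin, fell by 0.80 on the log2 scale. Plec, encoding plectin, which ties filaments to junctions, was the higher one (37.2 ± 2.37 to 48.1 ± 5.21 FPKM, 0.36, adjusted p = 0.028). Its call was lost in 8 of 19 alternatives, among them equal totals (adjusted p = 0.057) and those without passage 8, 9, 10, 90 or 103 (0.058 to 0.11).

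**Figure D2:**
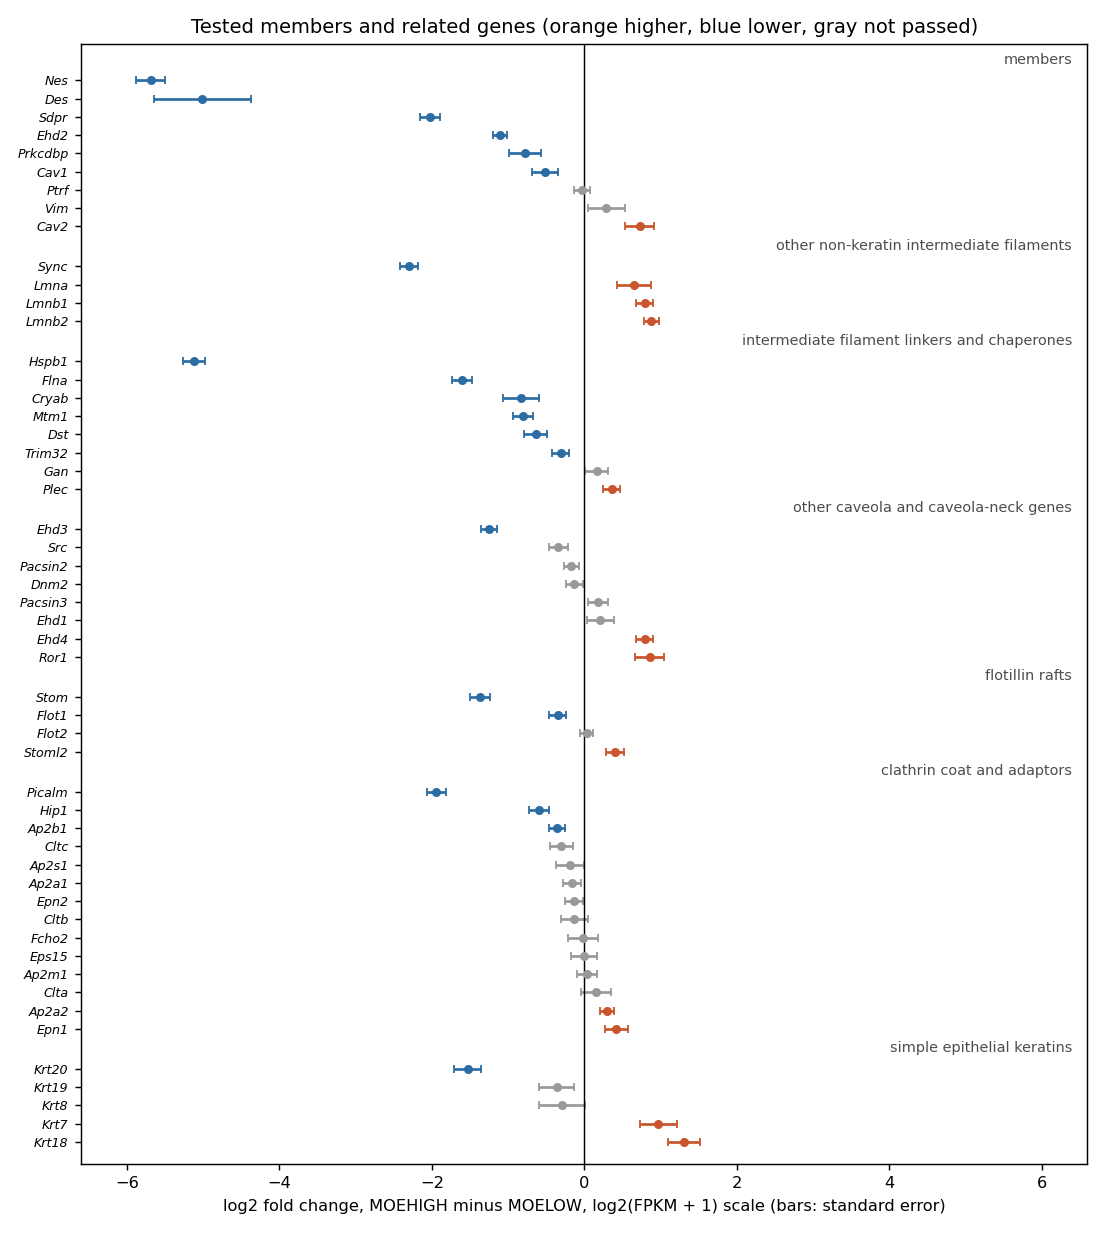
Log2 fold change of MOEHIGH against MOELOW on the log2(FPKM + 1) scale, with standard error bars, for the 9 tested members and the 43 tested genes of 6 related lists (orange higher, blue lower, gray not passed). Nes, Des and Hspb1 lie below -5, and the other caveola genes and the clathrin genes lie mostly near 0, with medians of 0.02 and -0.13. The sign of Ptrf turned under 3 scalings.

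Over the 6 related lists 43 of 57 genes were tested, of which 11 were higher, 14 lower and 18 did not pass. Their median log2 fold change was -0.14, and that of all tested genes was -0.05. Among all tested genes 24.3% were higher and 32.1% lower, shares to set beside the counts of every related list.

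Caveolin 1 is the structural protein without which caveolae do not form in most cells, and Cav1 lies at chr6:17306335-17341328 on the plus strand. It measured 433.3, 400.1 and 373.8 FPKM at passages 8, 9 and 10 and 273.9, 226.3 and 355.5 FPKM at passages 90, 103 and 113. The groups did not overlap, but passage 113 came close to passage 10. The mean fell from 402.4 ± 29.8 to 285.2 ± 65.3 FPKM, with a log2 fold change of -0.52 (SE 0.17, adjusted p = 0.032). This call was not stable. It was lost in 10 of 19 alternatives, among them the fit with no filter (adjusted p = 0.053), equal totals (0.057), and the fits without passage 8 (0.11), 9 (0.086), 10 (0.059), 90 (0.07) or 103 (0.11, with a log2 fold change of -0.36).

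Caveolin 2 joins caveolin 1 in the coat and needs it to reach the plasma membrane, and Cav2 lies at chr6:17281185-17289130 on the same strand. It measured 28.3, 30.4 and 29.0 FPKM in MOELOW and 42.4, 41.2 and 68.0 FPKM in MOEHIGH. All late passages were above all early ones. The mean rose from 29.3 ± 1.07 to 50.6 ± 15.2 FPKM (log2 fold change 0.73, SE 0.19, adjusted p = 0.011). With libraries scaled to equal totals it did not pass (0.67, adjusted p = 0.066). Cav2 thus moved against Cav1 in the main comparison, whereas at equal totals Cav1 did not pass either (adjusted p = 0.057, limma). The ratio of Cav2 to Cav1 was 0.0654, 0.0761 and 0.0776 in MOELOW and 0.155, 0.182 and 0.191 in MOEHIGH, with no overlap and a difference of 1.27 in log2 ratio (exact permutation p = 0.1, 0.129 adjusted).

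Both genes lie on chromosome 6, with 17204 bases between the end of Cav2 and the start of Cav1. The nearest tested genes moved in both directions. On the side of Cav2, Tes, which encodes a protein of focal adhesions, fell from 127.3 ± 5.63 to 64.7 ± 2.2 FPKM (log2 fold change -0.96, adjusted p = 7.2e-05). On the side of Cav1, Met, the receptor of hepatocyte growth factor, rose from 22.3 ± 4.2 to 38.6 ± 7.27 FPKM (0.77, adjusted p = 0.0068). Capza2, of an actin capping protein, was at 139.9 ± 2.77 and 121.7 ± 22.3 FPKM (adjusted p = 0.21). Tested genes of chromosome 6 had a median log2 fold change of -0.18.

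**Figure D3:**
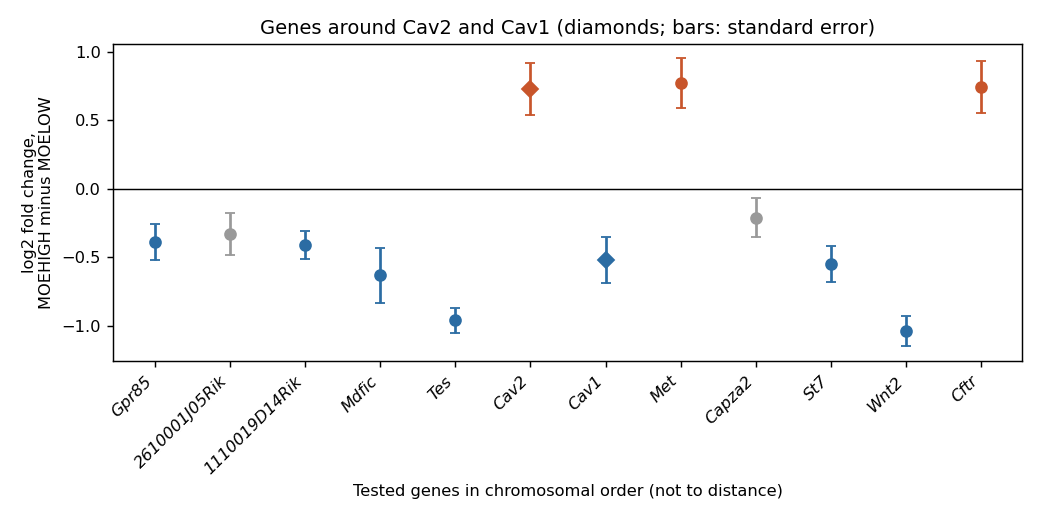
Log2 fold change (MOEHIGH against MOELOW) with standard error of the tested genes around Cav2 and Cav1 (diamonds), in chromosomal order and not to distance, with orange for higher, blue for lower and gray for not passed. Cav2 at 0.73 and Cav1 at -0.52 are adjacent and lie on opposite sides of 0.

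Cavins stabilize the coat, and cavin 1, encoded by Ptrf (chr11:100956736-100970617, minus strand), is required for it. Ptrf measured 320.0, 322.0 and 287.8 FPKM in MOELOW and 316.5, 307.4 and 288.2 FPKM in MOEHIGH. The groups overlapped almost fully. The means of 310.0 ± 19.2 and 304.0 ± 14.5 FPKM differed by less than the spread between passages (log2 fold change -0.03, SE 0.1, adjusted p = 0.84), and the sign turned with 3 of 4 other scalings, to between 0.01 and 0.09.

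Cavin 2, encoded by Sdpr (chr1:51289126-51302960, plus strand), binds phosphatidylserine and helps to bend the membrane. Sdpr measured 160.3, 165.6 and 123.3 FPKM at passages 8, 9 and 10 and 36.7, 33.6 and 37.3 FPKM at passages 90, 103 and 113. The late values were close together and all below the early ones. The mean fell from 149.7 ± 23.1 to 35.9 ± 1.97 FPKM, a ratio of 4.17, with a log2 fold change of -2.02 (SE 0.13, adjusted p = 1e-05) that held in all 19 alternatives (-2.15 to -1.94). Cavin 3, encoded by Prkcdbp (chr7:105480616-105482197), binds protein kinase C delta. Prkcdbp measured 126.1, 90.9 and 91.3 FPKM in MOELOW and 51.2, 79.1 and 49.5 FPKM in MOEHIGH. Its groups did not overlap, and passage 103 was nearest to the early passages. The mean fell from 102.8 ± 20.2 to 59.9 ± 16.6 FPKM (log2 fold change -0.78, SE 0.21, adjusted p = 0.013). Without passage 8 the call was lost (-0.63, adjusted p = 0.052).

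EHD2 limits the mobility of caveolae from their neck, and Ehd2 lies at chr7:15946963-15967535 on the minus strand. It measured 140.9, 135.0 and 147.8 FPKM in MOELOW and 63.8, 64.2 and 67.1 FPKM in MOEHIGH. Both groups were tight and far from overlap. The mean fell from 141.2 ± 6.39 to 65.0 ± 1.76 FPKM (log2 fold change -1.11, SE 0.09, adjusted p = 3.4e-05), and the call was lost only in the test against a change of 2-fold (adjusted p = 0.88).

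Set against Ptrf in the same library, the other cavin genes and Ehd2 were lower in each library of MOEHIGH than in any of MOELOW. The ratio of Sdpr to Ptrf was 0.501, 0.514 and 0.428 and then 0.116, 0.109 and 0.129. That of Prkcdbp was 0.394, 0.282 and 0.317 and then 0.162, 0.257 and 0.172. That of Ehd2 was 0.44, 0.419 and 0.514 and then 0.202, 0.209 and 0.233. None of these 3 ratios overlapped between the groups, with differences in log2 ratio of -2.02, -0.77 and -1.09 (exact permutation p = 0.1 each, 0.129 adjusted). The ratio of Ptrf to Cav1 was 0.739, 0.805 and 0.77 and then 1.16, 1.36 and 0.811, also without overlap (difference 0.49, exact permutation p = 0.1, 0.129 adjusted), with passage 113 just above the early range.

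**Figure D4:**
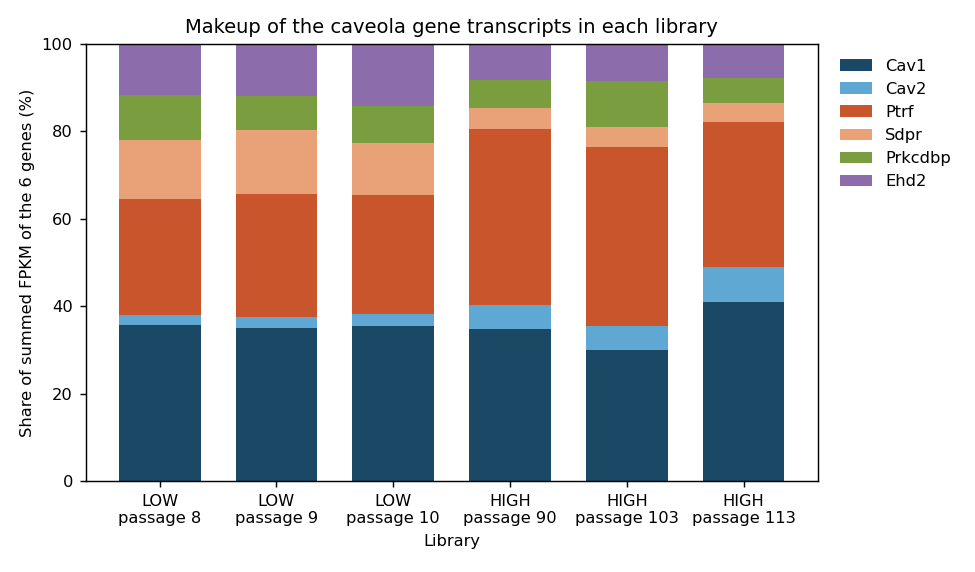
Share of each caveola gene in the summed FPKM of the 6 genes (percent, stacked to 100) in each library. Sdpr takes 11.7% to 14.5% in MOELOW and 4.31% to 4.68% in MOEHIGH, and Cav2 takes 2.34% to 2.75% and 5.41% to 7.86%.

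The summed FPKM of the 6 caveola genes was 1209.0, 1144.0 and 1053.0 in MOELOW and 784.7, 751.8 and 865.5 in MOEHIGH. Within that sum the share of Cav1 was 35.4% ± 0.439 and 35.4% ± 5.5 (SD, n = 3), so its mean share was alike. The share of Ptrf was 27.3% ± 0.84 in MOELOW and 38.2% ± 4.23 in MOEHIGH, and that of Sdpr was 13.1% ± 1.39 and 4.49% ± 0.188. Shares add up to 100%, so a fall in one raises the others.

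Other genes of caveolae, flotillin rafts and clathrin coats give the surroundings of these values. Of 11 further caveola and neck genes 8 were tested, of which 2 were higher, 1 was lower and 5 did not pass, with a median log2 fold change of 0.02. Ehd4, of the same ATPase family as Ehd2, rose from 34.7 ± 1.28 to 61.1 ± 7.37 FPKM (0.79, adjusted p = 0.00063), as did the receptor gene Ror1 (0.86). Ehd3 measured 1.37, 1.33 and 1.45 FPKM in MOELOW and was listed at 0 in MOEHIGH (-1.25, adjusted p = 2.2e-05). Pacsin2, whose protein bends the caveola neck, was at 45.7 ± 3.21 and 40.4 ± 2.25 FPKM and did not pass (adjusted p = 0.18). The muscle caveolin gene Cav3 was listed at 0 in all libraries, and Murc, encoding the muscle cavin, was at 0.642 ± 0.366 and 0.289 ± 0.0894 FPKM, below the filter. Of 4 tested genes of flotillin rafts 2 were lower (log2 fold change -0.35 for Flot1 and -1.37 for Stom), Stoml2 was higher and Flot2 did not pass. The call of Flot1 was lost without passage 9, 10 or 90 (adjusted p = 0.062 to 0.11), and that of Stoml2 without passage 8, 10, 90 or 103 (0.068 to 0.09). Of 14 tested genes of the clathrin coat and its adaptors 9 did not pass. Picalm, which recruits clathrin to the membrane, fell from 206.5 ± 5.94 to 53.6 ± 9.4 FPKM (-1.94, adjusted p = 1.3e-05), while the heavy chain gene Cltc was at 106.1 ± 2.6 and 87.0 ± 18.0 FPKM (adjusted p = 0.12).

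Caveola genes are also high in endothelium and adipocytes. Markers of both were low in these libraries, and their sums were lower in MOEHIGH. The 10 endothelial markers summed to 5.07 to 5.82 FPKM in MOELOW and 0.21 to 0.349 FPKM in MOEHIGH, with Cdh5, Tie1, Vwf and Cldn5 listed at 0 in all libraries. Both tested ones, the receptor genes Kdr (2.71 ± 0.889 to 0.00333 ± 0.00576 FPKM, adjusted p = 6.4e-05) and Flt1 (2.15 ± 1.07 to 0.203 ± 0.029 FPKM, adjusted p = 0.0015), fell. The 7 adipocyte markers summed to 5.2 to 7.11 and 1.37 to 1.58 FPKM, with Adipoq, Plin1 and Cidec at 0. Of the 2 tested, Pparg, encoding the adipocyte nuclear receptor, fell (4.93, 5.19 and 3.39 FPKM to no more than 0.034 FPKM, adjusted p = 6.9e-06). Lipe went the other way but did not pass (log2 fold change 0.25, adjusted p = 0.066). It measured 0.878, 1.04 and 1.11 FPKM in MOELOW and 1.45, 1.34 and 1.4 FPKM in MOEHIGH. The lower adipocyte sum thus lay mainly in Pparg. Leukocyte markers summed to 1.91 to 3.1 and 2.63 to 3.85 FPKM. The fibroblast, smooth muscle, endothelial and adipocyte sums were lower together with Sdpr, Ehd2 and Prkcdbp, and their part in these results was not tested.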

How the data were processed

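Total RNA of 6 passages of MOE cells was depleted of ribosomal RNA and sequenced as strand-specific libraries. TopHat2 2.0.8b (alignment to mm10) and Cufflinks with Cuffdiff 2.1.1 (UCSC annotation) were run by the authors, who deposited 1 table of FPKM per library (versions from the submitters' processing notes and the methods). Each table held 23141 entries, and for 236 symbols with several entries the one with the highest mean was kept. None of these was a member. For 43 genes, at least 1 library was listed at 0 although another library of that group reached 5 FPKM.

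MOEHIGH was tested against MOELOW with limma 3.58.1 (R 4.3.3, variance trend, no block) on log2(FPKM + 1) in the 11621 genes whose mean reached 0.5 FPKM. Benjamini-Hochberg adjustment covered all of them, with a threshold of 0.05. Ratios used FPKM as deposited. The members and gene lists were chosen with earlier results of these data known. All members were named, with at most the 4 largest calls per direction of each related list. Genes of those lists without a call could be named as well. Of each marker list at most the 3 largest calls per direction and markers at 0 were named, and neighbours by position. Pax8, Ovgp1, Epcam, Cdh1, Lipe, Mcam, Smtn, Postn, Fam65a, Snhg7 and Actg2 were named outside this rule, after their values were seen. Promoters came from RefSeq GRCm38.p6. The alternatives were pseudocounts of 0.1 and 0.01, other filters, 4 scalings, a test against a 2-fold change, no trend, an adjusted p of 0.01, a replicate block, summed entries and leaving out each library. Scripts used Python 3.11.15, pandas 2.3.3, numpy 2.4.6 and scipy 1.17.1. The test was also run on simulated data in which far fewer genes changed than were called here. That run does not cover so broad a change or genes near 0.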

Additional observations from a re-analysis of the deposited data

How the results depend on the processing

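Under 19 alternatives Des, Nes and Sdpr kept their direction and their side of the threshold, and Ehd2 did so in all but the test against a 2-fold change. Scaling moved the median log2 fold change of all tested genes from -0.052 as deposited to between -0.105 (equal totals, where Cav1 and Cav2 lost their calls) and 0.097 (quantile normalization). The log2 fold change of Ptrf turned to 0.01 with equal upper quartiles, 0.04 with median-of-ratios scaling and 0.09 with quantile normalization, and ranged from -0.08 to 0.01 without one library each, with 0.00 without passage 9 and 0.01 without passage 113. With a mean of at least 5 FPKM, which tests fewer genes, 2350 genes were lower. Of the members 0 were higher at equal totals (adjusted p = 0.066 for Cav2 by limma), at an adjusted p of 0.01 and in the test against a 2-fold change, against 1 in the main comparison, where Cav2 was also the 1 member higher with an unadjusted p under 0.05 (0.0048). That last test called 303 genes higher and 907 lower, 3 members lower, and 0 genes of the related lists higher and 4 lower, and at an adjusted p of 0.01 the related lists held 6 higher. Without one library each, 2212 to 3318 genes were higher and 3030 to 4378 lower, members were 1 to 2 higher and 4 to 6 lower, and related genes 6 to 13 higher and 10 to 15 lower. The second member called higher was Vim without passage 113. For the losses beyond fewer genes, fewer libraries or a stricter threshold the cause was not tested.

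Samples of the 2 groups share only replicate numbers, with correlations of same-numbered deviations of -0.024, -0.147 and 0.123, so the numbers do not pair them. With the replicate block 2967 genes were higher and 3839 lower, members were 1 higher and 6 lower, related genes 11 and 14, and no call of a member changed. FPKM tables give no depth, so low values such as those of Synm and of Des in MOEHIGH have no counting error here.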

Other observations

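Within MOEHIGH, whose libraries lie further apart in passage, the members differed in spread. The highest of the 3 values was 1.83 times the lowest for Vim, 1.65 for Cav2, 1.6 for Prkcdbp and 1.57 for Cav1, where the median of 7912 genes was 1.31. It was 1.11 for Sdpr, 1.1 for Ptrf and 1.05 for Ehd2, and 97.1% of those genes spread at least as widely as Ehd2. Nes (2.72), Des (1.98) and Synm (1.69) were not among the genes compared, and their values in MOEHIGH averaged 1.46, 0.204 and 0.361 FPKM. No test was made of these spreads.

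By position, the 10 nearest tested genes of Ptrf were lower in 6 cases and higher in 2, with a median log2 fold change of -0.38, although Ptrf itself was at -0.03. Those of Sdpr were lower in 5 cases and higher in 2 (median -0.39). Those of Ehd2, which fell, were higher in 4 cases and lower in 2, with a median of 0.30. The neighbours of Vim had a median of 0.04 and those of Synm one of -0.69, with 7 lower and 0 higher. For comparison, 32.1% of all tested genes were lower and 24.3% higher, with a median of -0.05.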
